A study of Homo sapiens with 6 samples.

Results

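The genes described here are 10 regulators of the BCL2 family: the anti-apoptotic BCL2, BCL2L1, MCL1 and BCL2A1, the effectors BAX and BAK1, and the BH3-only genes BCL2L11, BBC3, PMAIP1 and BID. They were chosen by name, with no measured value in the rule, although earlier results of these data were known at the time. Of the 20851 gene names in the count table, 10 matched. All 10 passed the filter on low counts, which left 14443 genes tested.

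Proteins of the BCL2 family control whether the outer mitochondrial membrane is permeabilised, the step that releases cytochrome c and starts the caspase cascade. BAX and BAK1 form the pores, the anti-apoptotic proteins hold the effectors and the BH3-only proteins in check, and BH3-only proteins either block the anti-apoptotic members or activate the effectors. Melanoma cells are known for their reliance on MCL1, and BCL2 and BCL2A1 belong to the genes that the melanocytic factor MITF is known to activate.

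Messenger RNA was sequenced from A375, an established human melanoma cell line, to ask what loss of the kinase RIPK4 does to the transcriptome. The control subline A375neg (labelled GFP control) received lentiviral CRISPR/Cas9 with a nontargeting guide, and A375RIPK4.KO received CRISPR/Cas9 with a lentiviral guide construct directed at RIPK4. Each group held 3 libraries, described as biological replicates. All knockout libraries came from clone #1, so loss of RIPK4 and any other difference between this clone and the control cells cannot be told apart.

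Libraries held between 21882863 and 26694140 counts, so that the 3 counts taken as a floor correspond to 0.112 to 0.137 CPM. RIPK4 had 319, 368 and 404 raw counts in A375neg and 42, 51 and 61 in A375RIPK4.KO, which matched the labels in all 6 libraries. A375RIPK4.KO replicate 2 stood apart from the other knockout libraries on the second principal component (-34.6 against 25.7 and 14.1), and its counts had the steepest dependence on gene length (slope -0.0437, against -0.00295 to 0.0159 elsewhere). Of the melanocytic markers 4 of 8 were listed, led by SOX10. Their summed normalised count was 9432 to 10211 in A375neg and 8145 to 8564 in A375RIPK4.KO, with MITF and S100B lower in the knockout at an adjusted p under 0.05 in edgeR. MITF kept this in 1 of 6 edgeR fits with a library left out, and in these fits the adjusted p of S100B reached 0.126. Leukocyte markers (4 of 5 listed, none passing the filter) summed to at most 17.1 normalised counts in any library. Among keratinocyte markers 3 of 4 were listed and summed to 1755 to 1845 against 1308 to 1623, with KRT14 lower in the knockout. KRT10 held most of that sum, with means of 1302 in A375neg and 1297 in A375RIPK4.KO, and KRT5 had 2 to 11 raw counts per library. The 3 of 4 listed fibroblast markers summed to 47.9 to 67.3 against 14.2 to 28.4, and the 2 tested did not pass. The part of these markers in the values below was not tested.

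Promoter windows of 300 bases, 250 before and 50 after an annotated start, were found in RefSeq (GRCh38.p14) for 9 of the 10 members, MCL1 being the one without an entry. Those of PMAIP1 and BAX are shown because these were the BH3-only gene with the lowest adjusted p and the effector that passed the test, a choice made after their values were seen. Both are printed 5′ to 3′ on the coding strand. Capitals mark the letters CACGTG, the E-box bound by MYC and MITF family factors, in BAX, and ACGTCA, the reverse strand of the ATF and CREB motif TGACGT, in PMAIP1.
PMAIP1, chr18:59899746-59900045, plus strand: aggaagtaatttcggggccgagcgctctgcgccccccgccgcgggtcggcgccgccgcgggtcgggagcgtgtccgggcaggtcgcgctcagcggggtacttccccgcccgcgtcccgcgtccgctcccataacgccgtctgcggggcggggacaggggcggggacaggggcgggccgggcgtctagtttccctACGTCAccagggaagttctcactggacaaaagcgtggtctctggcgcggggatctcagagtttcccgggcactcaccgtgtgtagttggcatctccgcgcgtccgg
BAX, chr19:48954625-48954924, plus strand: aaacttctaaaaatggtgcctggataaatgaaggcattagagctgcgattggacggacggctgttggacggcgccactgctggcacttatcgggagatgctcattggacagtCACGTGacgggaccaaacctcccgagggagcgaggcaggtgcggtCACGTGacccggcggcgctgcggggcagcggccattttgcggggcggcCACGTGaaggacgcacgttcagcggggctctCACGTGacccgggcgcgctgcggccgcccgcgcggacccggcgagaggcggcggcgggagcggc

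The BAX window held 4 CACGTG matches, starting at -138, -93, -45 and -14 from the annotated start. CACGTG, which reads the same on both strands, was found in 7.27% of 34961 RefSeq promoter windows of this length, and 4 or more matches in 0.0143% of them (5 windows). BBC3 had 1 such match, and so did 2 of the 5 BID windows. The PMAIP1 window had 1 TGACGT match on either strand, starting at -56, a motif held by 7.97% of the windows. A loose NF-kB pattern was searched as well and was held by 58.7% of all windows. These matches describe the letters only, and binding of any factor was not measured.

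Comparing A375RIPK4.KO with A375neg, 6 of the 10 members changed at an adjusted p under 0.05 (edgeR's quasi-likelihood test, Benjamini-Hochberg over all genes tested), where 16.6% of all tested genes did. PMAIP1, BCL2 and BCL2L1 were higher in the knockout, against a background of 8.4% of genes higher, and BBC3, BAX and MCL1 were lower, against 8.24% lower. None of the 10 reached the further limit of 1.5-fold in edgeR or in DESeq2, a limit passed together with the adjusted p by 9.04% of genes, and 7 had an unadjusted edgeR p under 0.05, as did 30% of all tested genes (4333). For 7 members every library of a group lay on the same side of the other group, which was the case for 36.5% of all tested genes. The median log2 fold change over the 10 members was 0.10, and that over all tested genes was -0.0047. Each functional class held members that differed in direction, as the plot of the members in each library shows.

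**Figure D1:**
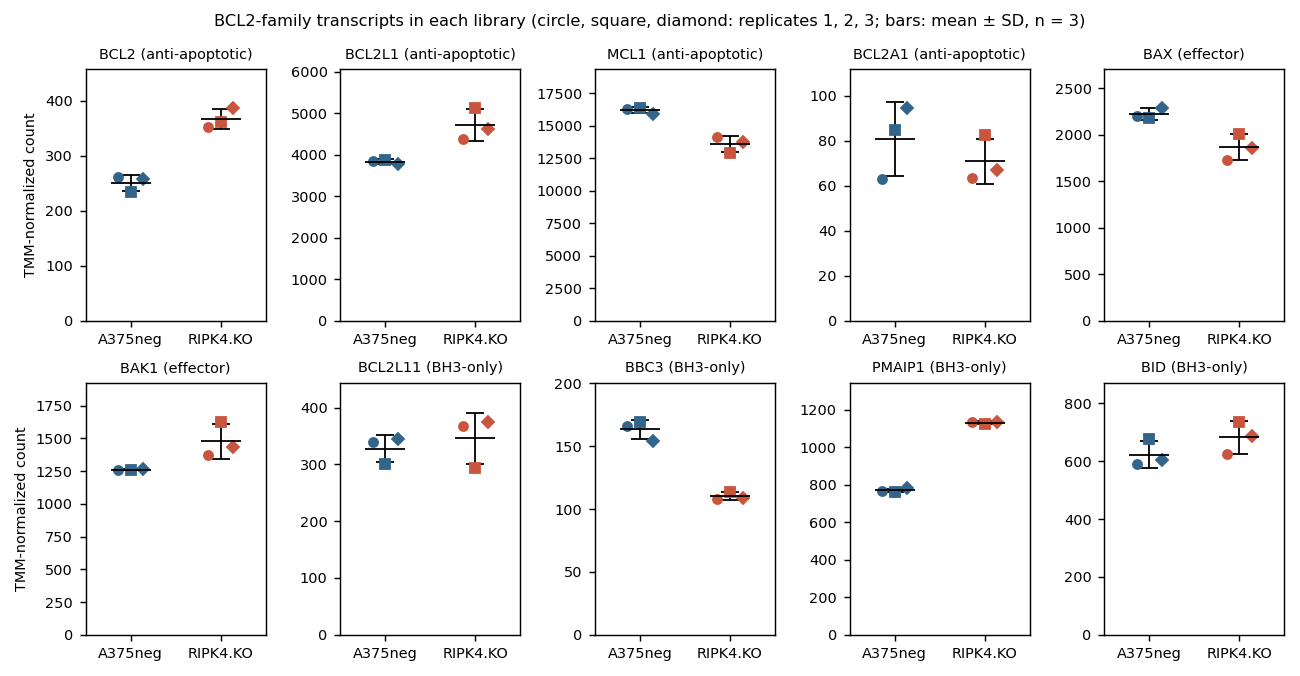
Normalised counts (TMM-scaled, y axes from 0 and differing between genes) of the 10 members in each library, with circles, squares and diamonds for replicates 1, 2 and 3, and bars for the mean ± SD (n = 3). PMAIP1 and BCL2 are higher and BBC3 lower in every A375RIPK4.KO library (x label RIPK4.KO) than in any A375neg library, while BCL2A1, BCL2L11 and BID overlap between the groups.

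Among the anti-apoptotic genes, BCL2 and BCL2L1 rose and MCL1 fell. BCL2, the founding anti-apoptotic member, had 261, 234 and 257 normalised counts in the A375neg libraries and 352, 361 and 387 in the A375RIPK4.KO libraries. Every knockout library lay above every control library, and the 3 libraries within a group lay close together. The increase was 1.46-fold (log2 fold change 0.55, SE 0.11, 95% interval 0.30 to 0.80), with an adjusted p of 0.00807 in edgeR's quasi-likelihood test. BCL2 stayed past the threshold whichever of the 6 libraries was left out, with log2 fold changes of 0.50 to 0.58.

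BCL2L1 encodes Bcl-xL and, by alternative splicing, the pro-apoptotic Bcl-xS, which gene-level counts do not separate. Its normalised counts were 3840, 3883 and 3768 in A375neg and 4377, 5137 and 4621 in A375RIPK4.KO. The controls were nearly equal, the knockout libraries were all higher, and knockout replicate 2 was the highest. The difference was 1.23-fold (log2 fold change 0.30, SE 0.07, 95% interval 0.14 to 0.46; adjusted p = 0.0184, edgeR). Leaving out any 1 of the control libraries ended this call, with adjusted p-values of 0.0642 to 0.0767, while the log2 fold change remained between 0.24 and 0.35 in all such fits. On the opposite strand, 1424 bases of BCL2L1 exon are shared with the lncRNA ABALON in GENCODE v29, and the strand setting of the counting is not given in the sources used here.

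MCL1, a short-lived anti-apoptotic protein whose transcript also has a pro-apoptotic splice form, had 16283, 16373 and 15919 normalised counts in A375neg. The A375RIPK4.KO libraries had 14137, 12919 and 13741. All of the latter were below all of the former, and replicate 2 was the lowest. The control level was 1.19-fold that of the knockout (log2 fold change -0.25, SE 0.06, 95% interval -0.39 to -0.12; adjusted p = 0.0204, edgeR). The call was lost without any single control library (adjusted p 0.0611 to 0.0954) and without knockout replicate 3 (0.0659), the direction being the same in each fit.

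BCL2A1, an anti-apoptotic member induced by NF-kB and MITF, was the least precisely measured of the 10, with 63.0, 84.8 and 94.8 normalised counts in A375neg and 63.4, 82.5 and 66.9 in A375RIPK4.KO. The groups overlapped over most of their range. Its log2 fold change of -0.19 had a 95% interval of -0.70 to 0.32 (adjusted p = 0.621, edgeR), so a change of 1.5-fold downward was within the interval.

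**Figure D2:**
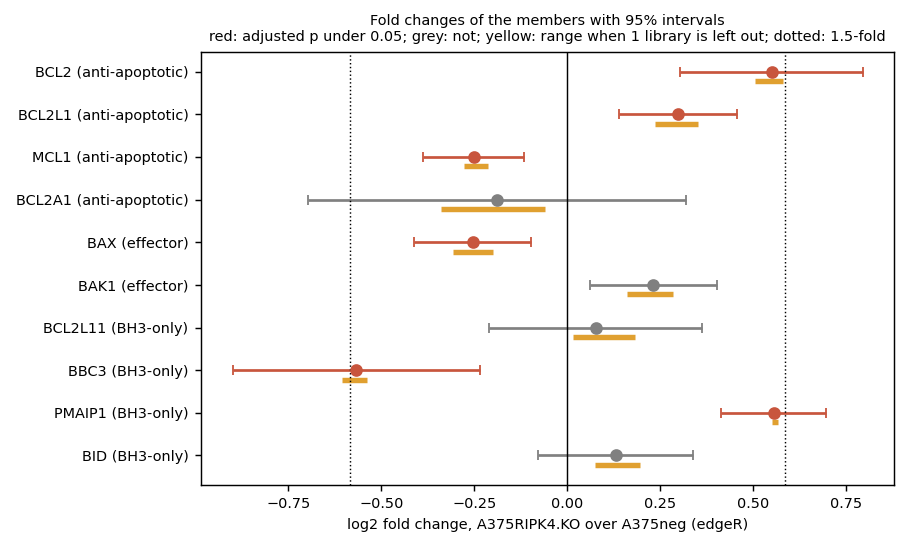
Log2 fold change of each member (x axis, A375RIPK4.KO over A375neg) with its 95% interval from edgeR, red where the adjusted p is under 0.05 and grey otherwise. Yellow bars give the range when 1 library is left out, and dotted lines mark 1.5-fold; PMAIP1 has the narrow interval 0.41 to 0.70 and BCL2A1 the wide one of -0.70 to 0.32.

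Of the effectors, BAX fell and BAK1 did not pass the test, its estimate lying in the other direction. BAX, which moves from the cytosol to mitochondria when activated, had 2203, 2173 and 2289 normalised counts in A375neg and 1724, 2003 and 1860 in A375RIPK4.KO. The groups did not overlap, and knockout replicate 2 came nearest to the controls. The log2 fold change was -0.25 (SE 0.07, 95% interval -0.41 to -0.10; adjusted p = 0.0358, edgeR). It remained past the threshold in 1 of 6 fits with a library left out, that without knockout replicate 2, with adjusted p-values of 0.0914 to 0.127 in the other fits. Without the filter on low counts the adjusted p was 0.0519.

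BAK1, the effector that resides at mitochondria, had 1259, 1255 and 1262 normalised counts in A375neg and 1373, 1627 and 1433 in A375RIPK4.KO. The spread in A375neg was 0.312% of the mean, less than sampling alone gives at such counts, so it is not a measure of precision. Every knockout library was above the controls, most of all replicate 2. With a log2 fold change of 0.23 (95% interval 0.06 to 0.40) the adjusted p was 0.0684 in edgeR. Over all alternatives it ranged from 0.0341, when gene length was included as an offset, to 0.18. BAK1 shares 91 exonic bases with GGNBP1 on the opposite strand.

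The count ratio of BAK1 to BAX within a library was 0.572, 0.577 and 0.552 in A375neg and 0.796, 0.812 and 0.770 in A375RIPK4.KO, a mean difference of 1.40-fold. This ratio is not scaled by length, so only its change between libraries is read, and the gene pair was chosen after the values were seen. Its spread within the knockout group was small. Knockout replicate 2 had the highest count of both genes, and a shared shift of this kind cancels in their ratio. That library had the highest count of its group for 6 of the 10 members (BCL2L1, BCL2A1, BAX, BAK1, BBC3 and BID) and the lowest for 3 (MCL1, BCL2L11 and PMAIP1). The same shares over all genes were not computed. As this library also stood apart over all genes, its extremes cannot be read as a trait of the members.

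The BH3-only genes included the member with the smallest adjusted p and the member with the most negative fold change. PMAIP1 encodes Noxa, which binds MCL1 and promotes its degradation. Its normalised counts were 765, 764 and 781 in A375neg and 1137, 1122 and 1136 in A375RIPK4.KO. Within each group the libraries agreed to 1.26% and 0.721% of the mean (coefficient of variation), and the groups were far apart. Sampling alone varies counts of this size by more than these percentages, so the closeness is not a measure of precision. PMAIP1 was 1.47-fold higher in the knockout (log2 fold change 0.56, SE 0.06, 95% interval 0.41 to 0.70; adjusted p = 0.000356, edgeR). The estimate moved only between 0.55 and 0.57 when a library was left out, and the call held in all 6 of these fits.

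BBC3 encodes Puma, which binds all anti-apoptotic members. It had 166, 170 and 154 normalised counts in A375neg and 108, 114 and 109 in A375RIPK4.KO. All knockout libraries were lower than all controls. The control level was 1.48-fold that of the knockout (log2 fold change -0.57, SE 0.15, 95% interval -0.90 to -0.24; adjusted p = 0.0289, edgeR). The call was lost in 5 of 6 fits with a library left out, the exception being that without knockout replicate 2, and without the filter on low counts (adjusted p = 0.0546). Over all alternatives the adjusted p ranged from 0.0225 to 0.105. BBC3 exons contain the microRNA genes MIR3190 and MIR3191.

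The remaining BH3-only genes did not pass the test. BCL2L11, which encodes Bim, an activator of BAX and BAK1 with several splice forms, had 339, 300 and 344 normalised counts in A375neg and 367, 294 and 375.1 in A375RIPK4.KO. The groups overlapped, and replicate 2 was the lowest in both. Its log2 fold change was 0.08 (95% interval -0.21 to 0.36; adjusted p = 0.731, edgeR), and it shares 727 exonic bases with MIR4435-2HG on the opposite strand.

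BID, the protein that links death receptors to mitochondria once caspase-8 has cleaved it, had 589, 676 and 605 normalised counts in A375neg and 624, 737 and 686 in A375RIPK4.KO. The ranges overlapped, and replicate 2 was the highest in both groups. The log2 fold change was 0.13 (95% interval -0.08 to 0.34; adjusted p = 0.387, edgeR).

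Within the same library, the count ratio of BBC3 to PMAIP1 was 0.217, 0.222 and 0.198 in A375neg and 0.0952, 0.101 and 0.0955 in A375RIPK4.KO. The knockout ratio was thus 0.459 of the control ratio. The ratio of PMAIP1 to MCL1, whose products bind each other, was 0.0470, 0.0466 and 0.0491 in A375neg and 0.0804, 0.0869 and 0.0826 in A375RIPK4.KO, 1.75-fold higher. BCL2L1 to BAX gave 1.74, 1.79 and 1.65 against 2.54, 2.56 and 2.48. Each of these pairs joins a gene that was higher in every knockout library with one that was lower. The groups therefore could not overlap in these ratios, and the separation adds nothing to the values of the single genes. As above, these pairs were chosen after their values were seen, and the ratios are a description of counts not scaled by length.

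To compare genes with one another, normalised counts were divided by the length of the merged exons. On this per-kilobase scale MCL1 had the highest level in A375neg, at 3704 ± 55.0 (SD, n = 3), followed by BCL2L1 at 1156 ± 17.6, BAX at 859 ± 23.3, BAK1 at 569 ± 1.79 and PMAIP1 at 344 ± 4.34. BID (140 ± 10.5), BCL2A1 (74.2 ± 14.9), BBC3 (51.4 ± 2.47), BCL2L11 (49.2 ± 3.59) and BCL2 (21.3 ± 1.24) were lower. BBC3 and BCL2L11 were the only neighbours in this order whose A375neg libraries overlapped.

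In A375RIPK4.KO the first 7 genes had the same order, and BCL2L11 (51.9 ± 6.69 per kilobase) then preceded BBC3 (34.6 ± 0.985) and BCL2 (31.2 ± 1.56). There the overlapping neighbours were BAX (720 ± 54.0) and BAK1 (668 ± 60.1). The order depends on the length used. With the longest annotated transcript, BAX (1636 ± 44.4) was above BCL2L1 (1468 ± 22.3) in A375neg but below it in A375RIPK4.KO (1371 ± 103 against 1805 ± 149), while MCL1 remained first and BCL2 last in both groups.

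**Figure D3:**
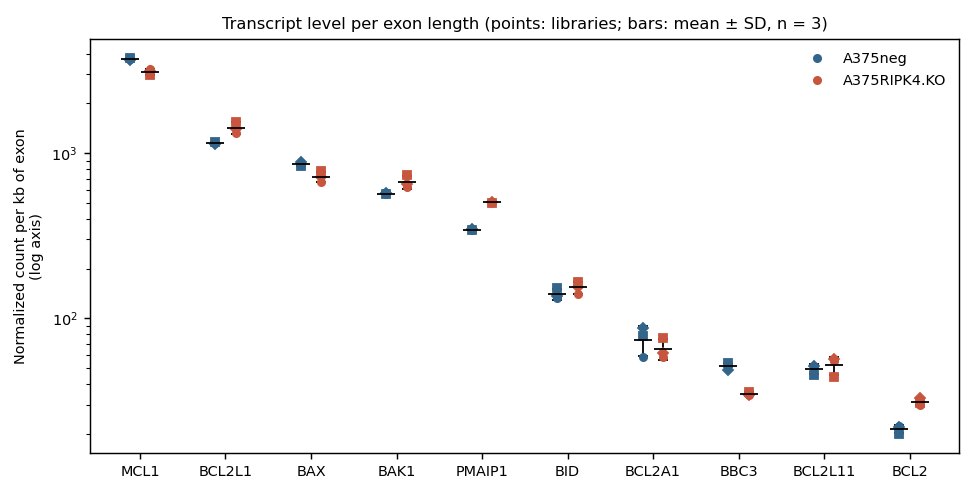
Normalised count per kilobase of merged exon (log axis) for the 10 members, ordered by their mean in A375neg, in A375neg (blue) and A375RIPK4.KO (red), with bars for the mean ± SD (n = 3). MCL1 leads at 3704 in A375neg and 3111 in A375RIPK4.KO, and BCL2 is last at 21.3 and 31.2.

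As a share of the summed per-kilobase level of the 4 anti-apoptotic genes, MCL1 made up 75.0%, 74.7% and 74.5% in A375neg and 69.7%, 64.1% and 67.9% in A375RIPK4.KO. BCL2L1 contributed 23.3%, 23.4% and 23.3% in A375neg and 28.4%, 33.6% and 30.1% in A375RIPK4.KO. The MCL1 share was lower and the BCL2L1 share higher in every knockout library than in any control, with knockout replicate 2 farthest from the controls for both. BCL2 had a share of 0.430% ± 0.029 in A375neg and 0.674% ± 0.034 in A375RIPK4.KO (SD, n = 3), and BCL2A1 had 1.499% ± 0.311 and 1.41% ± 0.206 with overlapping libraries. The 4 shares sum to 100% by construction, and no test was made of them. MCL1 was lower and BCL2L1 higher in every knockout library, and the shares of BCL2 and BCL2A1 are small. The separation of the MCL1 and BCL2L1 shares therefore adds nothing to the values of the single genes.

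**Figure D4:**
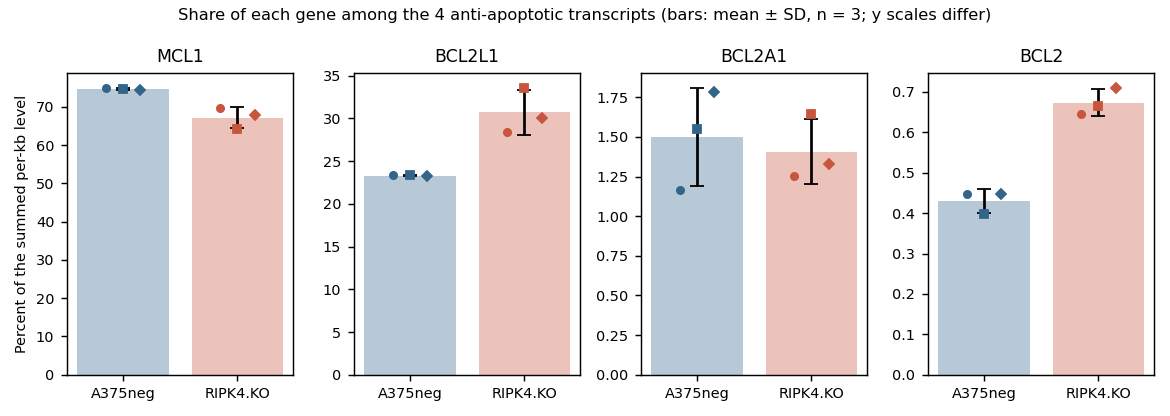
Percent of the summed per-kilobase level of the 4 anti-apoptotic genes taken by each gene (y axes from 0, scales differ), with 1 point per library and bars for the mean ± SD (n = 3). MCL1 goes from 74.8% to 67.2% and BCL2L1 from 23.3% to 30.7% between A375neg and A375RIPK4.KO (x label RIPK4.KO). The groups do not overlap, which follows from the counts of the single genes.

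Other genes of the pathway were taken from 7 lists of 65 genes. Of these, 59 were listed and 57 tested. In edgeR 5 were higher and 9 lower in A375RIPK4.KO at an adjusted p under 0.05, and 43 did not pass, so that 14 of 57 passed where 16.6% of all genes did. Their median log2 fold change was -0.0054. Only JUN also reached 1.5-fold. When a library was left out, 4 of the 14 stayed past the threshold in all 6 fits, BIRC3, TNFRSF1A and JUN among them. The others did so in 1 to 4 of these fits, MITF and CFLAR in 1, FAS and AIFM1 in 2. For 23 of the 57 the libraries of the groups did not overlap, where this was the case for 36.5% of all tested genes. Where non-overlap is stated below for genes that passed, it is not support beyond the test.

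Among the other BCL2-family genes tested, 1 of 10 was higher and 1 lower, against 8.4% and 8.24% of all tested genes. BOK, an effector-like member, had 350, 409 and 332 normalised counts in A375neg and 491, 552 and 476 in A375RIPK4.KO (log2 fold change 0.48, SE 0.11; adjusted p = 0.0179, edgeR). BNIP3L, a mitophagy receptor, was lower (-0.41, SE 0.10; adjusted p = 0.0216, edgeR). The libraries of the groups did not overlap for either gene. HRK had 2 to 14 raw counts per library and was below the filter, and BCL2L10 and BCL2L14 were not among the gene names of the count table.

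Where 16.6% of all tested genes passed, 12 of 13 caspases and apoptosome components did not, including the initiator CASP9 and the scaffold APAF1. The exception was AIFM1, a mitochondrial flavoprotein that can move to the nucleus in cell death, at a log2 fold change of -0.26 (SE 0.07; adjusted p = 0.0304, edgeR). The 3 VDAC genes of the outer mitochondrial membrane did not pass either, with estimates of 0.07 to 0.10.

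In the inhibitor of apoptosis family 1 of 5 tested genes was higher and 1 lower, against 8.4% and 8.24% of all tested genes. The genes that passed were the ubiquitin ligases cIAP1 and cIAP2, which act in TNF receptor signalling. BIRC2 (cIAP1) rose by a log2 fold change of 0.26 (SE 0.06; adjusted p = 0.0176, edgeR). BIRC3 (cIAP2) had 967, 1055 and 1185 normalised counts in A375neg and 772, 806 and 769 in A375RIPK4.KO (-0.45, SE 0.09; adjusted p = 0.00674, edgeR). Every knockout library of BIRC3 was below every control.

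Death receptor genes had the lowest list median, -0.13. Of 8 tested genes 3 were lower and 1 higher, against 8.24% and 8.4% of all tested genes. The TNF receptor TNFRSF1A had 3266, 3608 and 3704 normalised counts in A375neg and 2430, 2700 and 2550 in A375RIPK4.KO, a log2 fold change of -0.46 (SE 0.07; adjusted p = 0.00207, edgeR). FAS (-0.39, adjusted p = 0.0183) and the TRAIL receptor TNFRSF10B (-0.30, adjusted p = 0.0258) were also lower in the same edgeR fit. CFLAR, which encodes c-FLIP, an inhibitor of caspase-8 at these receptors, was the gene that rose (0.46, SE 0.10; adjusted p = 0.0161, edgeR), with 334, 349 and 335 normalised counts against 507, 413 and 478. For these genes the control and knockout libraries did not overlap.

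Of 11 transcription factors known to act on BCL2-family genes, 3 were lower and 1 higher, against 8.24% and 8.4% of all tested genes. FOXO3, an activator of BCL2L11 and BBC3, was among those lower (-0.47, SE 0.12, adjusted p = 0.0291, edgeR), as was MITF (-0.44, SE 0.13, adjusted p = 0.0449, edgeR). MITF passed in 1 of 6 fits with a library left out, and did not pass without the filter on low counts. JUN, an AP-1 subunit, had 920, 922 and 883 normalised counts in A375neg and 1924, 2023 and 2028 in A375RIPK4.KO, 2.19-fold higher (adjusted p = 4.79e-06, edgeR). The libraries of FOXO3, MITF and JUN separated by group, as did those of 6 of the 11 in all, against 36.5% of all tested genes. ATF4, an activator of PMAIP1 and BBC3 under stress, was among the 7 that did not pass. It had a log2 fold change of -0.01 with a 95% interval of -0.17 to 0.15. The largest estimates among these 7 were those of DDIT3 and TP73, in opposite directions. DDIT3 had -0.60 (95% interval -1.05 to -0.15, adjusted p = 0.0721, edgeR) and TP73 had 0.46 (0.11 to 0.81, adjusted p = 0.0740, edgeR).

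Where 8.4% of all tested genes were higher, 1 of 7 genes that act on the turnover or anchoring of family proteins was. This was MARCHF5, a mitochondrial ubiquitin ligase that acts on MCL1 and its partners, with 1019, 1033 and 1197 normalised counts in A375neg and 1460, 1343 and 1257 in A375RIPK4.KO (log2 fold change 0.32, SE 0.09; adjusted p = 0.0355, edgeR). The groups did not overlap. HUWE1, USP9X, FBXW7 and BTRC, which ubiquitinate or deubiquitinate MCL1, had estimates of -0.13 to 0.07 and did not pass. The plot of the pathway by role shows these genes beside those that did not pass.

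**Figure D5:**
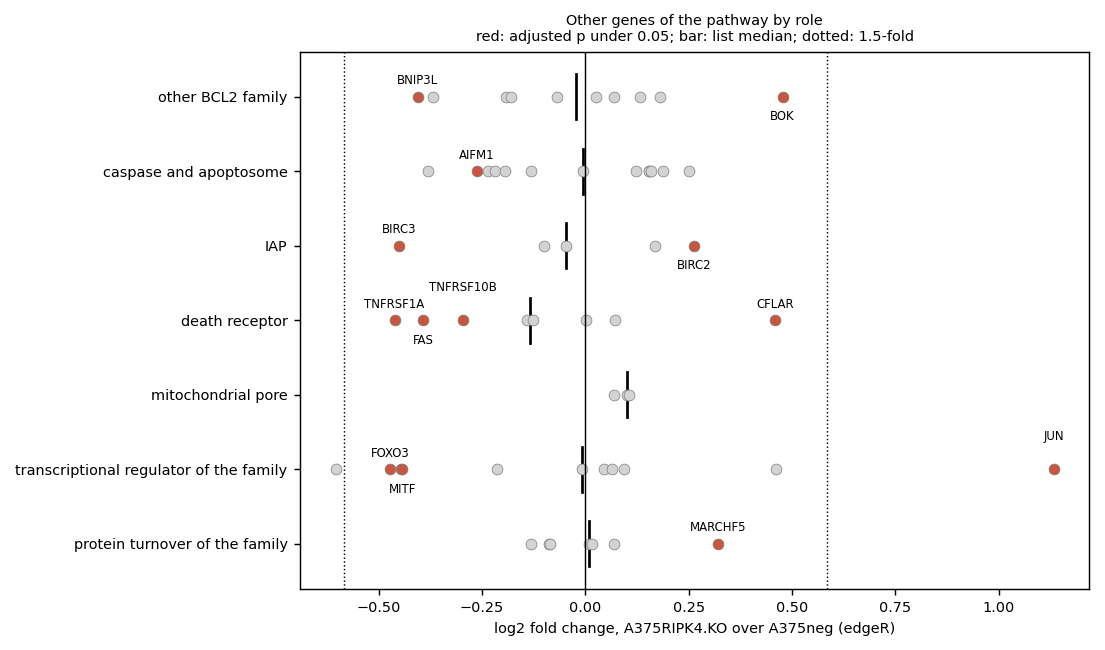
Log2 fold change (x axis, A375RIPK4.KO over A375neg, edgeR) of 57 tested genes in 7 lists of the pathway, 1 row per list, with the list median as a vertical bar and genes at an adjusted p under 0.05 in red, named where the text gives their values. Dotted lines mark 1.5-fold, which JUN alone passes among the genes in red. The 3 named death receptors lie between -0.46 and -0.30.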

How the data were processed

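Poly(A) RNA of 3 A375neg and 3 A375RIPK4.KO libraries was sequenced with a strand-specific kit. The authors deposited raw counts per gene, and the submitters' processing notes name cutadapt, FastQC, HISAT2, HTSeq, DESeq2 and the build GRCh38.p13 without roles. The strand setting, versions and annotation are not given in the sources used here. The authors also deposited size-factor-normalised counts (a signal with its mean over libraries) and their own comparison: a fold change (linear ratio), its log2 value and standard error, a Wald score and a p-value. None of these columns was used.

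The raw counts were tested with edgeR 4.0.16 in R 4.3.3 (TMM, filterByExpr, quasi-likelihood F-test, 2 groups of 3, no block), with Benjamini-Hochberg adjustment over 14443 genes. Each log2 fold change carries an SE taken from its F statistic and a 95% interval. Exact permutation over 3 against 3 libraries cannot go below p = 0.1 and was not used for calls. Lengths are merged GENCODE v29 exons (GRCh38), available for 17241 of 20851 genes (82.7%), because the deposited table gives the position of only 1 exon per gene. Promoter windows came from RefSeq.

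All named genes followed 1 rule: every member, RIPK4, and each pathway gene at an adjusted p under 0.05, with marker lists as counts; some genes of the lists enter the counts but are not reported here by name. Genes named beyond it (CASP9, APAF1, ATF4, DDIT3, TP73, HRK, the VDAC genes, HUWE1, USP9X, FBXW7, BTRC, SOX10, S100B, KRT5, KRT10 and KRT14) were added after values were seen. BCL2L10 and BCL2L14 were named because the count table does not hold them. The members and lists were chosen with earlier results of these data known. Alternatives were DESeq2 1.42.0, edgeR with its size factors, testing of every gene, a minimum mean count of 50, a replicate block, a gene length offset (lowess span 0.3) and leaving out each library. The fits were tested on simulated counts in which 200 genes were changed. The edgeR fits kept within the limit set for false calls. DESeq2 exceeded that limit, making more false calls than its threshold allows, after which the limit was applied to the edgeR fits only; calls by DESeq2 should be read with this. P-values set the group difference against the spread between these libraries, those of the control subline and those of a single knockout clone. They do not cover differences between clones.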

Additional observations from a re-analysis of the deposited data

How the results depend on the processing

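All 10 members kept the direction of their fold change under each alternative run. The count of members at an adjusted p under 0.05, 6 with all libraries, was 2 to 6 when 1 library was left out: 2 without any 1 of the A375neg replicates (BCL2 and PMAIP1), 5, 6 and 3 without A375RIPK4.KO replicates 1, 2 and 3. The count also meeting 1.5-fold, 0 with all libraries, was 0 to 1 in those fits (BBC3 without A375RIPK4.KO replicate 2) and 1 with the gene length offset (BCL2, log2 fold change 0.59). The pathway count, 14 with all libraries, was 6 to 17, lowest without A375neg replicate 1 and highest without A375RIPK4.KO replicate 2. Calls over all genes in these fits numbered 1526 to 2952 against 2403 with all libraries, the highest again without A375RIPK4.KO replicate 2. DESeq2 called the same 6 members, as did its size factors and the higher count minimum, and dropping the filter left 4, without BAX and BBC3.

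Samples with the same replicate number did not deviate together (correlations of 0.0823, 0.0357 and -0.0119), and 1 of 3 numbers correlated best with itself. With the replicate block 6 members and 14 pathway genes passed, 0 members reached 1.5-fold, and 2549 genes passed in all.

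With the longest GENCODE transcript as length, an alternative chosen after seeing the data in place of a planned RefSeq length that was not run, the shares of the anti-apoptotic sum in A375neg and A375RIPK4.KO were 0.590% and 0.914% for BCL2, 25.8% and 33.5% for BCL2L1, and 72.3% and 64.3% for MCL1. Each group held 3 libraries, and BCL2A1 had fewer than 100 normalised counts in each of them.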
